A study of Mus musculus with 4 samples.

Results

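Tight, gap and desmosomal junction genes were followed through mouse embryonic stem (ES) cells, mouse embryonic fibroblasts (MEFs) and an induced pluripotent stem (iPS) cell clone. The members were the gene probes whose array name is that of a claudin, a connexin, a desmoglein, a desmocollin, a plakophilin or a zonula occludens protein, or is Ocln, F11r, Dsp or Jup. They came to 85 of 41174 gene probes and 58 of 27734 genes. RNA of the ES cell line CGR8.8 lay in the green channel (Cy3) of each of 4 arrays. The red channel (Cy5) held RNA of MEFs on 2 arrays and RNA of the iPS clone on 2 arrays. Cultures of ES and iPS cells received leukemia inhibitory factor, which keeps them undifferentiated, at 1000 IU/ml. The iPS clone was taken 30 days after transduction, and the MEFs had been through several passages. The labels name no strain, no transduced genes and no donor animals, and the iPS group is 1 clone. The labels call the arrays of a group biological replicates without saying that cultures were separate, so the p-values rest on a spread between arrays that may be technical.

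Tight junctions seal the space between neighbouring epithelial cells. Claudins and occludin form their strands, the immunoglobulin-family protein F11r lies beside them, and the Tjp scaffolds tie them to actin. Gap junctions are channels of connexins that pass ions and small molecules between cells. Desmosomes join keratin filaments of neighbouring cells through cadherins (desmogleins and desmocollins) and a plaque of desmoplakin (Dsp), plakoglobin (Jup) and plakophilins. ES cells grow as compact, epithelium-like colonies, while fibroblasts are mesenchymal cells with few such contacts.

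Values are log2 ratios of red over green after background correction and loess normalization, where 0 means equal signal in ES cells. A gene was called when its ratio was at least 2-fold and its Benjamini-Hochberg adjusted p in limma, over all 24874 tested probes, was under 0.05. Each gene is given by its tested probe with the highest mean intensity. Between 61.6% and 64.0% of spots were well above background in a channel, and ratios of replicate arrays correlated at 0.989 (MEF) and 0.992 (iPS) across probes. All 5 pluripotency markers were lower in MEFs than in ES cells (median -4.10), and in iPS cells 3 were higher and Pou5f1 was lower. All 7 fibroblast markers were higher in MEFs (median 4.32). The ES cells also gave fibroblast marker signal: the summed processed signal of the 7 markers was 43430 to 53245 in ES cells, 976605 to 1017900 in MEFs and 2940 to 3059 in iPS cells. Markers of other cells moved too. In MEFs over ES cells 3 of 6 macrophage, 2 of 5 primitive endoderm and 2 of 4 muscle markers were higher (1, 2 and 0 lower), and in iPS cells over ES cells 1, 1 and 2 were lower and none higher. The summed macrophage signal was 1682 to 2263 in ES cells, 14497 to 15198 in MEFs and 1108 in iPS cells, and the muscle signal was 24246 to 29063, 57377 to 59964 and 1268 to 1354. Their part in the junction results was not tested.

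Of the 58 junction genes, 36 could be tested, on 51 probes. A further 20 genes had no probe well above background in any of the 3 RNAs. They included the claudins Cldn2, Cldn8, Cldn10, Cldn11, Cldn13, Cldn16, Cldn17, Cldn18 and Cldn22, the connexins Gja6, Gjb6 and Gjd2, and the desmosomal cadherins Dsc1, Dsc3, Dsg1a, Dsg1b, Dsg1c and Dsg4. Most of these desmosomal cadherins are known from stratified epithelium. The remaining 2, Cldn14 and Tjp3, had a spot marked by the scanner software on an array and were left out of the fit. Of the 36 tested genes, 25 were well above background in all 3 RNAs. The others passed through the RNA in which they were bright: 5 were not well above background in ES cells, 7 not in MEFs and 4 not in iPS cells.

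Among the 36 tested junction genes, 13 were lower and 1 was higher in MEFs than in ES cells, with a median ratio of -0.50. Over all 17237 tested genes the median was -0.01, 13.7% were lower and 14.0% were higher. In iPS cells 12 junction genes were lower and 4 higher than in ES cells (median -0.49), where 11.9% of all tested genes were lower and 9.10% higher (median 0.00). Between iPS cells and MEFs 3 were lower and 13 higher in iPS cells (median 0.36), where 19.1% of all tested genes were lower and 17.0% higher (median 0.02). Both ratios over ES cells share the ES RNA of the green channel. The desmosomal plaque and the claudins held most of the large falls, and the connexins held the 4 genes that were higher in iPS cells than in ES cells.

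**Figure D1:**
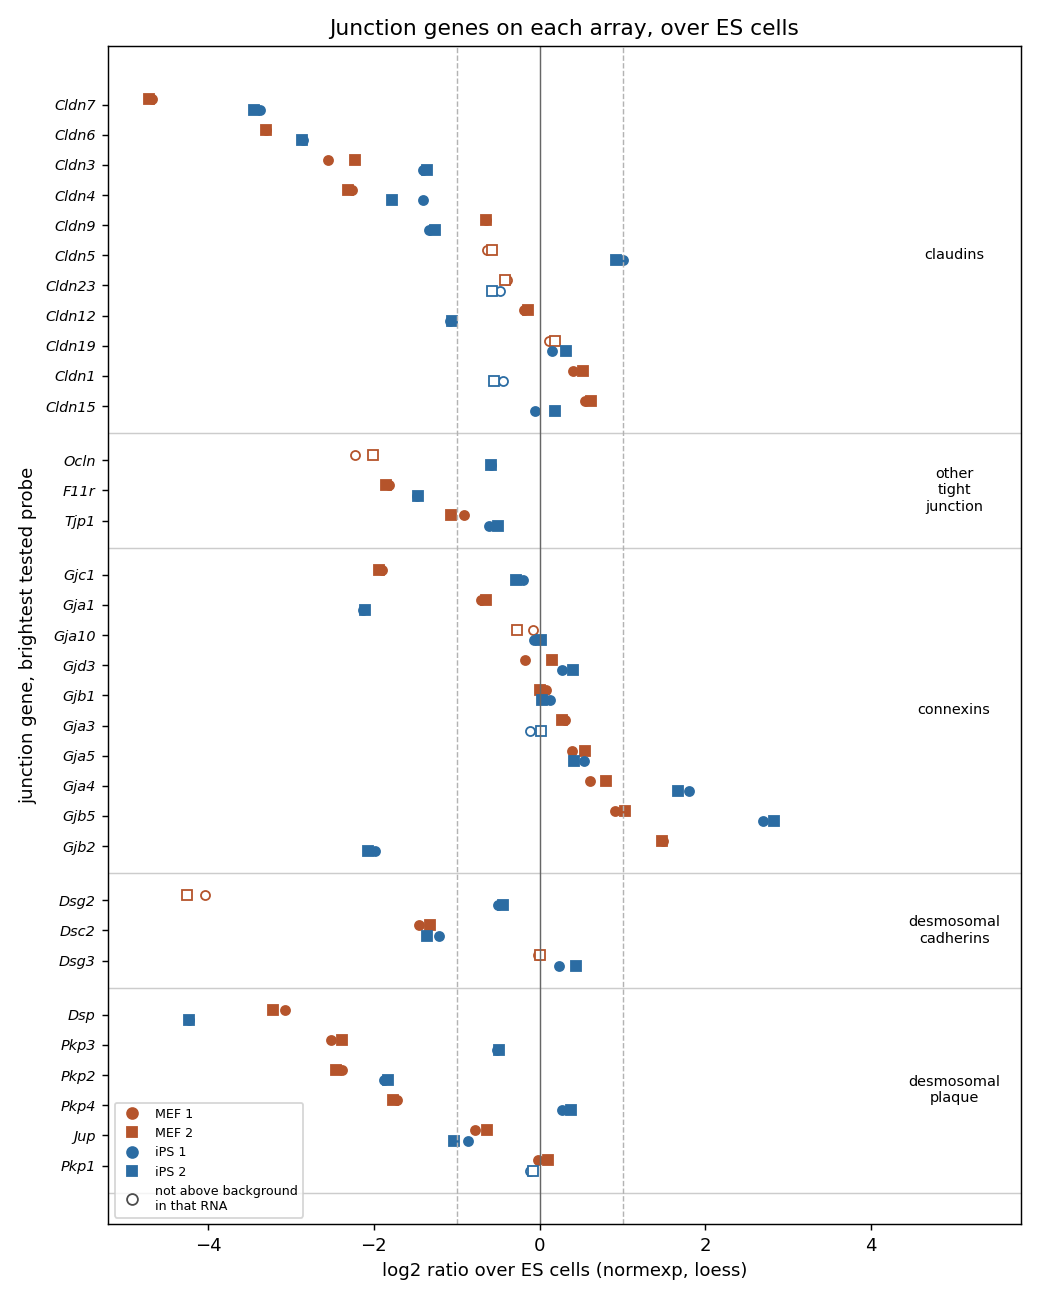
Log2 ratio over ES cells (horizontal axis) of 33 tested junction genes (vertical axis, by family) on the 2 MEF arrays (orange) and the 2 iPS arrays (blue). Circles are replicate 1, squares replicate 2, open symbols mark genes not well above background in that RNA, and dashed lines mark 2-fold. Most points of claudins and plaque genes lie left of 0, and Gjb5 and Gja4 lie right of the 2-fold line in iPS cells, with ratios of 1.67 to 2.83.

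The counts, those of MEFs most of all, depended on how the background was fitted. With the normexp background model fitted over all spots, marked ones included, limma called 0 junction genes in MEFs over ES cells. Under that setting 11 junction genes were still at least 2-fold lower in MEFs, and 4 genes had an unadjusted p under 0.05 with a 2-fold change. The iPS over ES calls then numbered 7 lower and 4 higher, and those of iPS cells over MEFs 1 lower and 2 higher. The falls of Cldn3, Cldn4, Cldn6, Cldn7 and Dsc2 in iPS cells over ES cells lost their call. All 14 spots of MEF replicate 1 with a local background above 500 had been marked by the scanner software. The fit over unmarked spots, used for every value here, was adopted with both counts known.

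**Figure D2:**
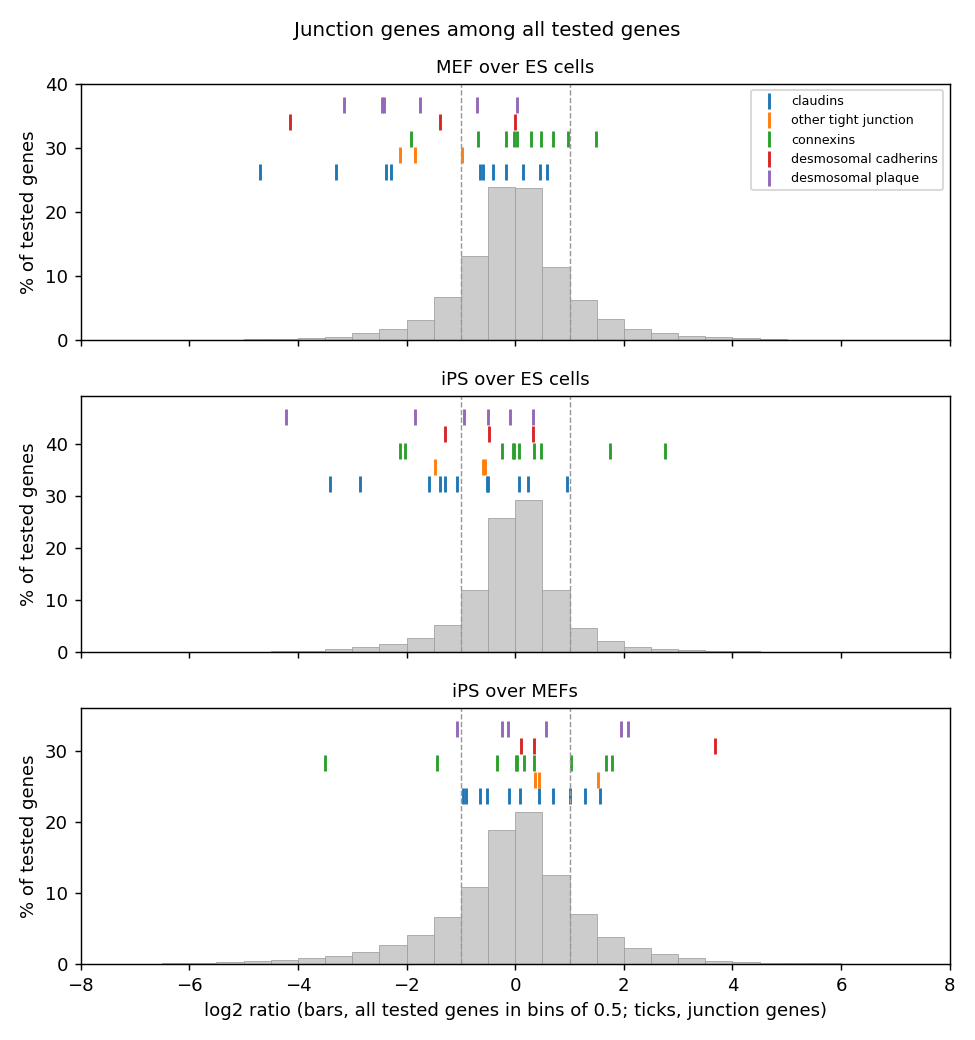
Share of all 17237 tested genes (grey bars, percent, vertical axis) in bins of the log2 ratio (horizontal axis), with a tick for each of 33 tested junction genes, coloured by family, in the 3 comparisons. Dashed lines mark 2-fold. In the MEF panel over ES cells the junction ticks reach -4.69, and among iPS ratios over ES cells the connexin Gjb5 lies at 2.76.

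Of 21 claudin genes 11 were tested. In MEFs 4 were lower than in ES cells and in iPS cells 6 were. The shares of all tested genes that were lower were 13.7% in MEFs and 11.9% in iPS cells. With normexp fitted over all spots the 4 MEF calls were lost. So were the iPS calls of Cldn7, Cldn6, Cldn3 and Cldn4, at ratios of -3.41, -2.85, -1.38 and -1.59 (limma adjusted p = 0.053, 0.081, 0.17 and 0.15). Cldn7, a claudin of simple epithelia, gave the lowest fitted ratio in MEFs among junction genes well above background there. Its ratio was -4.67 and -4.71 on the MEF arrays and -3.38 and -3.45 on the iPS arrays. Both groups lay far below ES cells and did not overlap each other. The fitted ratios were -4.69 ± 0.048 in MEFs (SE, n = 2; adjusted p = 3.74e-09) and -3.41 ± 0.048 in iPS cells (adjusted p = 6.61e-09). The difference of 1.28 ± 0.068 between iPS cells and MEFs (adjusted p = 1.72e-06) turned to -0.08 with normexp fitted over all spots. The probe behind these values is 60 bases long and lies on mouse chromosome 11, at chr11:69783473-69783782 of build mm8, where its 60 bases span 310 bases of genome. It is shown because every Cldn7 value rests on it.
Cldn7 probe: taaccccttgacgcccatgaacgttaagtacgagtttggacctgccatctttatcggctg

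Cldn6, a claudin of embryonic epithelia, stood at -3.30 on both MEF arrays and at -2.85 and -2.86 on the iPS arrays. The fitted ratios were -3.30 ± 0.046 in MEFs and -2.85 ± 0.046 in iPS cells, and the gap between iPS cells and MEFs was under 2-fold (0.44 ± 0.065), turning to -1.02 with normexp fitted over all spots. Cldn9, a claudin known from the inner ear, has its probe 1.1 kb from that of Cldn6 on chromosome 17. Its ratio was -0.65 and -0.64 in MEFs, under 2-fold, and -1.33 and -1.26 in iPS cells, where it was called (-1.29 ± 0.048, adjusted p = 2.92e-07). Of the 19 other tested genes within 300 kb of Cldn6, 6 were lower and 1 was higher in iPS cells than in ES cells. The shares of all tested genes were 11.9% and 9.10%. A fall was not limited to the claudins in this stretch.

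Cldn3 and Cldn4, claudins of epithelia that also bind a bacterial enterotoxin, have probes 41.8 kb apart on chromosome 5. Cldn3 stood at -2.55 and -2.22 in MEFs and at -1.41 and -1.35 in iPS cells. Cldn4 stood at -2.27 and -2.31 in MEFs and at -1.40 and -1.78 in iPS cells. Both genes were called in both groups, with fitted ratios of -2.38 ± 0.078 and -2.29 ± 0.085 in MEFs and of -1.38 ± 0.078 and -1.59 ± 0.085 in iPS cells. The MEF arrays were the lower ones for each gene. The difference between iPS cells and MEFs was 1.00 ± 0.11 for Cldn3, just past the fold limit, and 0.70 ± 0.12 for Cldn4, short of it. The Cldn3 difference fell below the limit without MEF replicate 1 and without iPS replicate 2, and turned to -0.22 with normexp fitted over all spots, where the Cldn4 difference turned to -0.41. Among the 13 other tested genes within 300 kb of Cldn4, 4 were higher in iPS cells than in ES cells (Limk1, Abhd11, Bud23 and Mlxipl). The share of all tested genes was 9.10%, and the lowest ratio among the 13 was -0.80. Cldn13, also in that stretch, was not well above background.

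The promoters of the called claudins that lie in these neighbouring pairs are shown because the genes fell in both groups. Each is the 250 bases before the RefSeq start on the gene's strand (build GRCm38.p6): chr17:23679115-23679364 on the plus strand for Cldn6, chr5:134985964-134986213 on the plus strand for Cldn3 and chr5:134946935-134947184 on the minus strand for Cldn4. Capitals mark matches on either strand to 6 motifs. These are the TATA box with the letters TATAAA, the GC box of Sp-family factors with the letters GGGCGG, the E-box that Snail and Zeb repressors bind with the letters CAGGTG, the AP-2 motif with the letters GCCNNNGGC, the Grainyhead motif with the letters AACCGGTT and the octamer of Pou factors with the letters ATGCAAAT.
Cldn6 promoter: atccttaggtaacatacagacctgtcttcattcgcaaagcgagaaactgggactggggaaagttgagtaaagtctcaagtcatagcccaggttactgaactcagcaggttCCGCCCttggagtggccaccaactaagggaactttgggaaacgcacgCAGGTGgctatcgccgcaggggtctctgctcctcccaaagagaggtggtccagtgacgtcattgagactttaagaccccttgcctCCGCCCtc
Cldn3 promoter: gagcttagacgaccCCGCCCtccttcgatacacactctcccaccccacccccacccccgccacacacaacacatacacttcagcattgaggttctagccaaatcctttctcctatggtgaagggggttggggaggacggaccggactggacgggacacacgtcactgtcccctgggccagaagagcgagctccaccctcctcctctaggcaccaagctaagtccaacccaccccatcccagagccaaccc
Cldn4 promoter: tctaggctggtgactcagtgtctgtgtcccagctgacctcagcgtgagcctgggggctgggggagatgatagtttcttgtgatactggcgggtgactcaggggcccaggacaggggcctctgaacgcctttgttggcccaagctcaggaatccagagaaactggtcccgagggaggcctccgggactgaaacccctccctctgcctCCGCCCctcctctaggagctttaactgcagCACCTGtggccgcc

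Cldn6 held 2 GC boxes and 1 CAGGTG E-box, Cldn4 held 1 of each, and Cldn3 held 1 GC box. No match overlapped another. Cldn7 has 2 starts in the table, of which the first had no match to any motif in the 250 bases before it and the second had 2 E-boxes and 1 GC box. Among 32817 promoter windows of this length in the table, 32.7% held a GC box and 17.2% the E-box. Promoters were matched for 35 of the 58 junction genes (50 windows), of which 24 windows held a GC box and 13 the E-box. By gene, 21 of the 35 held a GC box and 12 the E-box. Windows at the same position were counted once among the 32817 and were not merged among the 50, so the 2 counts are not strictly alike. These matches are letters in a window and were set against no binding data.

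The other claudins moved less in the fit used here. Cldn12 stood at -0.18 and -0.14 in MEFs and at -1.08 and -1.05 in iPS cells, called in iPS cells (-1.07 ± 0.047, adjusted p = 7.07e-07) and short of 2-fold under median centring. Cldn5, the claudin of the endothelial barrier, was not well above background in MEFs. Its ratio was -0.63 and -0.57 on the MEF arrays and 1.00 and 0.92 on the iPS arrays, so that the groups lay on opposite sides of ES cells. The ratio in iPS cells, 0.96 ± 0.050, was short of 2-fold, and iPS cells were called higher than MEFs (adjusted p = 6.76e-07). The size of that difference is uncertain. The processed signal was 24.4 and 7.59 on the MEF arrays, not well above background, against 294 and 243 in iPS cells. Of 7 endothelial markers, Pecam1 and Tek were higher in iPS cells than in ES cells, Kdr was lower, and Cdh5 and Tie1 were not well above background in any RNA; the summed signal of the list was 4016 to 5280 in ES cells, 6977 to 7385 in MEFs and 1312 to 1320 in iPS cells. Its part in the Cldn5 result was not tested. Cldn1, a claudin of the skin barrier, stood at 0.47 ± 0.054 in MEFs and was not well above background in iPS cells, where its ratio was -0.50. Its processed signal was 110 and 96.8 in MEFs, 41 to 47.7 in ES cells and 5.79 and 5.07 in iPS cells. With processed signals its ratios over ES cells were 1.21 in MEFs and -2.96 in iPS cells, so the sizes are uncertain. Cldn15 stood at 0.59 in MEFs and 0.06 in iPS cells, not called, and Cldn19 was well above background on all arrays of iPS cells alone, with no call. Cldn23 was not well above background on any MEF or iPS array, with a processed signal of 5.99 to 28.6 there and 64.7 to 96.7 in ES cells. It was at least 1.33-fold lower in MEFs and at least 1.29-fold lower in iPS cells, and its ratios with processed signals were -1.85 and -3.46.

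Of the other tight junction proteins, Ocln (occludin) was not well above background in MEFs. Its processed signal was 17.7 and 22.7 in MEFs and 261 and 283 in iPS cells, against 433 to 598 in ES cells. Its ratio was -2.23 and -2.01 on the MEF arrays and -0.59 on both iPS arrays, so iPS cells lay between MEFs and ES cells. Ocln was at least 4.19-fold lower in MEFs than in ES cells (adjusted p = 6.87e-08) and at least 2.85-fold higher in iPS cells than in MEFs (adjusted p = 2.42e-06). In the fit to the scanner's processed signals, which add no offset, the MEF ratio was -4.81.

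F11r, the adhesion molecule also called JAM-A, was lower in both groups, at -1.82 and -1.85 in MEFs and -1.48 and -1.46 in iPS cells. Its fitted ratios were -1.84 ± 0.046 in MEFs and -1.47 ± 0.046 in iPS cells (adjusted p = 1.36e-07), and the iPS call was lost under median centring, at -0.81. Tjp1, the scaffold zonula occludens protein, stood at -0.91 and -1.06 in MEFs and at -0.61 and -0.50 in iPS cells, just short of 2-fold in MEFs (-0.99 ± 0.058). A dimmer probe of Tjp1 gave -0.13 in MEFs.

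Of 17 connexin genes 12 were tested: 1 was lower and 1 higher in MEFs than in ES cells, and 2 were lower and 4 higher in iPS cells. The shares of all tested genes were 13.7% and 14.0% in MEFs and 11.9% and 9.10% in iPS cells.

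Gjb5, a connexin of trophoblast and skin, stood at 2.69 and 2.83 in iPS cells and at 0.91 and 1.03 in MEFs. The MEF ratio was just short of 2-fold (0.97 ± 0.057) and the iPS ratio was called (2.76 ± 0.057, adjusted p = 2.07e-08). Gja4, a connexin of arterial endothelium and of the oocyte, stood at 1.80 and 1.67 in iPS cells and at 0.61 and 0.80 in MEFs (1.74 ± 0.064 in iPS cells, adjusted p = 2.87e-07). For both genes the iPS arrays lay above the MEF arrays, and the differences between iPS cells and MEFs were called (1.79 ± 0.081 for Gjb5 and 1.03 ± 0.090 for Gja4). The Gja4 difference was lost without MEF replicate 1 and without iPS replicate 1. The probes of these genes lie 43.8 kb apart on chromosome 4 of build mm8, at chr4:126813908-126813967 (Gja4) and chr4:126857725-126857784 (Gjb5).

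The promoters of Gja4 and Gjb5 are shown because both genes rose in iPS cells over ES cells and lie near each other. They are the 250 bases before the RefSeq start, both on the minus strand: chr4:127314040-127314289 for Gja4 and chr4:127358165-127358414 for Gjb5 (build GRCm38.p6). Capitals mark the same 6 motifs.
Gja4 promoter: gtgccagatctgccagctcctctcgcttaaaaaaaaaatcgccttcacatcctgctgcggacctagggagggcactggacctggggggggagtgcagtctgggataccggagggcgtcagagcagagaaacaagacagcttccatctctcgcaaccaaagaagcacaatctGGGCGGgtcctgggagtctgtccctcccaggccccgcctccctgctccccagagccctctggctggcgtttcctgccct
Gjb5 promoter: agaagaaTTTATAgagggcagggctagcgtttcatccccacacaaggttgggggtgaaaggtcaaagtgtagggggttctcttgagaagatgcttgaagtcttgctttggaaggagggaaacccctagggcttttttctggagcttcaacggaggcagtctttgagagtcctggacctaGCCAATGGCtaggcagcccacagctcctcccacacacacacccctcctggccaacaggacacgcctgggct

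Gja4 held 1 GC box. Gjb5 held 1 TATA box in reverse, at the far end of the window, and 1 AP-2 match. Of all 32817 windows, 12.4% held the TATA letters and 13.7% an AP-2 match. No motif was found in both promoters.

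Gjb2, a connexin of the cochlea and of skin, went the opposite ways. Its processed signal was 1920 and 1750 in MEFs, 43.2 and 48.7 in iPS cells and 507 to 643 in ES cells. Its ratio was 1.49 and 1.47 on the MEF arrays and -1.98 and -2.07 on the iPS arrays. MEFs lay above ES cells and iPS cells below them on every array, with fitted ratios of 1.48 ± 0.049 (adjusted p = 1.24e-07) and -2.02 ± 0.049 (adjusted p = 3.88e-08). A second Gjb2 probe was not well above background in any RNA. Beside these values, 5 of 7 fibroblast markers were lower in iPS cells than in ES cells (median of the 7, -1.92), with all 7 above background in ES cells and Col3a1 and Lox not above it in iPS cells. Its part in the fall of Gjb2 in iPS cells was not tested.

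Gja1, the most widely expressed connexin and the main gap junction protein of heart muscle, had a probe printed 10 times on each array, with 9 spots used on MEF replicate 2 and all on the others. Its mean ratio was -0.71 and -0.65 on the MEF arrays and -2.13 and -2.10 on the iPS arrays. The SD between spots of an array was 0.027 to 0.060, and the MEF and iPS arrays did not overlap. Gja1 was called in iPS cells over ES cells (-2.12 ± 0.048, adjusted p = 2.93e-08) and over MEFs (-1.44 ± 0.068, adjusted p = 8.56e-07), and not in MEFs over ES cells (-0.68 ± 0.048). Gjc1, a connexin of the heart's conduction system that the array lists as Gja7, was lower in MEFs, at -1.90 and -1.94, and stood at -0.20 and -0.29 in iPS cells. Its second probe gave -2.01 in MEFs and -0.37 in iPS cells. The difference between iPS cells and MEFs was 1.67 ± 0.070 (adjusted p = 4.56e-07). Gjb1 and Gjd3 lay between -0.02 and 0.34 in both groups, not called. Gja3 and Gja10 were near background. Gja3 was not well above it in iPS cells or on the ES channel of the iPS arrays, and its MEF ratio was 0.29 here and 1.03 with processed signals. Gja10 was not well above it on MEF replicate 2, and its MEF ratio was -0.17 here and -0.99 with processed signals.

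Gja5, a connexin of the atria and arteries, gave different answers on its 4 tested probes. The probe with the highest mean intensity stood at 0.39 and 0.54 in MEFs and at 0.53 and 0.41 in iPS cells. A probe of the RefSeq transcript stood at 2.56 and 2.89 in MEFs and at 0.00 and -0.24 in iPS cells. It was not well above background in iPS cells, and in ES cells not on every array. Its processed signal was 946 and 1180 in MEFs and 24.6 to 44.9 in ES cells. This probe was called higher in MEFs (2.73 ± 0.090, adjusted p = 1.22e-07), and a second probe of the same transcript gave 0.59. The remaining probe, listed as Gja5 on the array, gave no call and lies at chr3:98497154-98497213 of mm8, apart from the others at chr3:97136450-97161658. Of the 7 endothelial markers named above, Emcn was higher in MEFs (5.07) and Kdr lower (-1.54). The part of the endothelial markers in the Gja5 result was not tested.

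Desmosomal cadherins were measured for 3 of 9 genes. Dsg2 and Dsc2, the cadherins of desmosomes in simple epithelia, were both lower in MEFs. The Dsg2 probe with the highest mean intensity was not well above background in MEFs. Its processed signal was 27.2 and 10.3 there, 1340 and 1620 in iPS cells and 1780 to 2220 in ES cells. Its ratio was -4.04 and -4.25 in MEFs and -0.50 and -0.45 in iPS cells, so iPS cells lay close to ES cells. On this probe Dsg2 was at least 15.8-fold lower in MEFs than in ES cells (adjusted p = 5.75e-09). The iPS signal of this probe was at least 12.6-fold above that of MEFs (adjusted p = 3.47e-08). The gene's 2 other tested probes gave smaller falls, -1.48 and -1.56 in MEFs. The probe at -1.48 was well above background in MEFs, with a processed signal of 46 and 43.7. Its difference between iPS cells and MEFs was 0.97, not called, so the bounds above do not hold for that probe. Dsc2 stood at -1.45 and -1.32 in MEFs and at -1.21 and -1.36 in iPS cells, where the groups overlapped. It was lower in both, at -1.39 ± 0.060 and -1.28 ± 0.060, its next probe gave -1.48 and -1.32, and its dimmest was short of 2-fold at -0.88 and -0.68. Neither of these probes was well above background on all arrays of MEFs or of iPS cells. Dsg3, a cadherin of stratified epithelium, stood at 0.34 in iPS cells and was not well above background in MEFs or ES cells. It thus passed the filter through iPS cells alone. Its processed signal was 34 and 43.3 in iPS cells and 5.47 to 7.23 in ES cells, and its iPS ratio with processed signals was 2.74. Another Dsg3 probe was not well above background in any RNA.

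All 6 plaque genes were tested. In MEFs 4 were lower, and in iPS cells 2 were, against 13.7% and 11.9% of all tested genes. Dsp (desmoplakin), which ties the plaque to keratin filaments, was the lowest junction gene in iPS cells. Its processed signal was 415 and 483 in iPS cells, 1260 and 1100 in MEFs and 8920 to 11800 in ES cells. The ratio was -4.23 on both iPS arrays and -3.07 and -3.22 on the MEF arrays, and both groups lay far below ES cells. The fitted ratios were -4.23 ± 0.054 in iPS cells (adjusted p = 5.49e-09) and -3.15 ± 0.054 in MEFs (adjusted p = 7.72e-09). The other Dsp probes gave smaller falls. The probe nearest in intensity gave -1.89 in MEFs and -2.20 in iPS cells, the next gave -1.03 and -1.26, and the dimmest, not called, -0.42 and -0.52. Neither of the dimmer ones was well above background on all arrays of MEFs or of iPS cells. The difference between iPS cells and MEFs was called on the first probe (-1.08 ± 0.076) and on none of the others, which gave -0.32, -0.23 and -0.10. The first probe lies at chr13:38205718-38205777 of mm8. The letters of the 3 other probes, all at different places in the gene on chromosome 13 (mm8), are given below.
Dsp probe at chr13:38205331-38205390: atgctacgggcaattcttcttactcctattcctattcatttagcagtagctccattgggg
Dsp probe at chr13:38203255-38203314: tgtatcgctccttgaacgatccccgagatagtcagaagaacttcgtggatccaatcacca
Dsp probe at chr13:38201077-38202176: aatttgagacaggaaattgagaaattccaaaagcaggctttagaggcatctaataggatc

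Pkp2, a plakophilin of heart and simple epithelia, was lower in both groups, at -2.38 and -2.45 in MEFs and -1.88 and -1.82 in iPS cells. Its fitted ratios were -2.42 ± 0.049 and -1.85 ± 0.049 (adjusted p = 1.43e-08 and 5.85e-08). Pkp3, a plakophilin of most epithelia, stood at -2.52 and -2.38 in MEFs and at -0.52 and -0.49 in iPS cells. Pkp4, which is found in desmosomes and adherens junctions, stood at -1.72 and -1.77 in MEFs and at 0.27 and 0.38 in iPS cells. For Pkp3 and Pkp4 the fall over ES cells was called in MEFs and not called in iPS cells, and the differences between iPS cells and MEFs were called (1.94 ± 0.074 and 2.07 ± 0.072). The second Pkp4 probe gave -1.53 in MEFs and 0.09 in iPS cells. Jup (plakoglobin), shared by desmosomes and adherens junctions, stood at -0.78 and -0.64 in MEFs and at -0.86 and -1.04 in iPS cells, short of 2-fold in both (-0.71 ± 0.063 and -0.95 ± 0.063). Pkp1, a plakophilin of stratified epithelium, was not well above background on any ES or iPS array, so its fitted ratios are not given. Its processed signal was 36.6 and 36.1 in MEFs and 16.3 to 19.5 in ES cells.

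**Figure D3:**
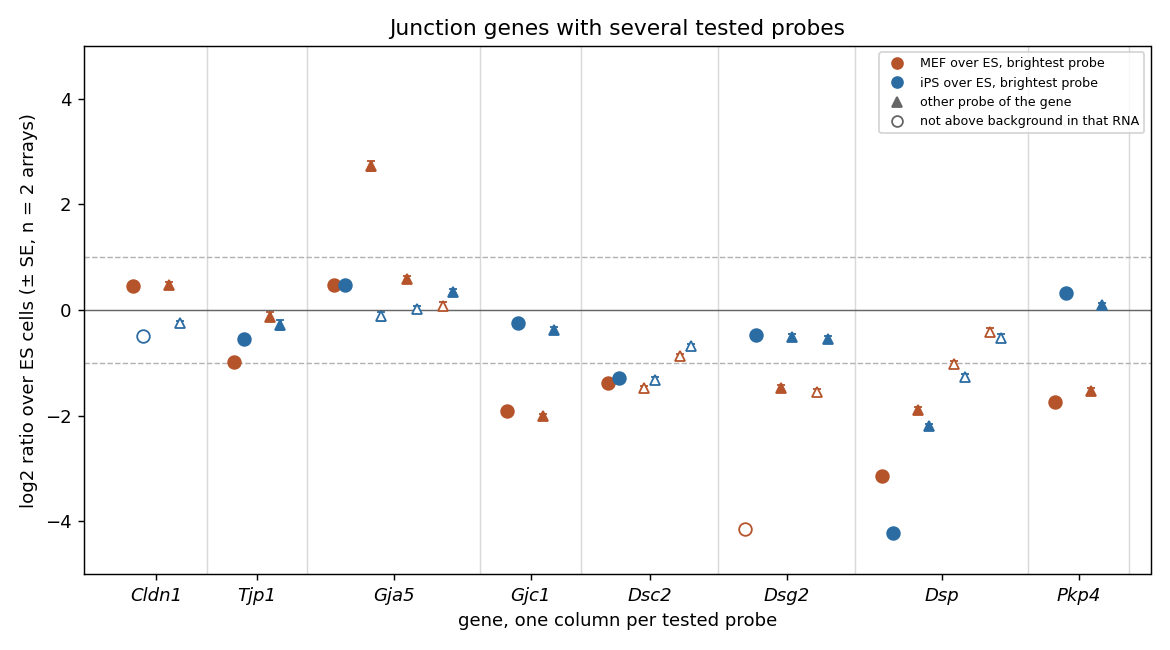
Fitted log2 ratio over ES cells (vertical axis, ± SE, n = 2 arrays) of every tested probe of 8 junction genes with more than 1 tested probe (horizontal axis), in MEFs (orange) and iPS cells (blue). Circles are the probe with the highest mean intensity, triangles the others, open symbols are not well above background in that RNA, and dashed lines mark 2-fold. Probes of Gjc1 and Pkp4 lie close together, while those of Dsp spread from -4.23 to -0.52 in iPS cells and 1 Gja5 probe lies at 2.73 in MEFs.

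Across the 9 genes with more than 1 tested probe, calls differed between probes in at least 1 comparison for 5, among them Dsc2, Dsg2, Dsp and Gja5. Cldn1, Gjc1, Pkp4 and Tjp1 had the same calls on their probes. Dsg2 differed only in iPS cells over MEFs, where the other probes gave 0.97, not called, and 1.00, called.

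Other genes of these junctions were taken from lists of scaffold, adherens junction, filament-linking, channel and regulator genes. Of 65 such genes 58 were tested. In MEFs 25 were lower and 7 higher (median -0.52), and in iPS cells 25 were lower and 5 higher (median -0.63). Of all tested genes 13.7% were lower and 14.0% higher in MEFs, and 11.9% and 9.10% in iPS cells. In iPS cells over MEFs 12 were lower and 13 higher (median 0.17), where 19.1% and 17.0% of all tested genes were. Among 28 tested scaffold, polarity and adhesion genes of the tight junction, 10 were lower and 3 higher in MEFs and 12 were lower and 3 higher in iPS cells. Crb3, an apical polarity protein, was at least 22.4-fold lower in MEFs (adjusted p = 3.74e-09) and at -3.23 ± 0.048 in iPS cells. Ildr1, a protein of tricellular contacts, was at least 3.52-fold lower in MEFs and at 2.79 ± 0.10 in iPS cells. Jam2, an adhesion molecule related to F11r, was higher in both (1.09 ± 0.048 and 2.58 ± 0.048), and Prkcz, a polarity kinase, in iPS cells (1.42 ± 0.047). Cgnl1, related to cingulin, was higher in MEFs (1.43 ± 0.049). Amot, a regulator of Hippo signalling at junctions, stood at 1.23 in MEFs and at -4.01 in iPS cells.

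Of 11 adherens junction genes, 4 were lower and 1 higher in MEFs, and 3 lower and 1 higher in iPS cells. All tested genes were lower and higher in shares of 13.7% and 14.0% in MEFs and 11.9% and 9.10% in iPS cells. Cdh1 (E-cadherin) stood at -5.84 and -5.66 in MEFs and at -1.25 and -1.31 in iPS cells. It was lower in both (-5.75 ± 0.059 and -1.28 ± 0.059), and iPS cells were 4.47 ± 0.083 above MEFs. Epcam, an epithelial adhesion molecule, was at -4.65 ± 0.079 in MEFs and -1.43 ± 0.079 in iPS cells. Among 6 tested genes that link desmosomes to filaments, 5 were lower in MEFs and 4 in iPS cells. The keratins Krt18, Krt8 and Krt19, which desmoplakin holds, stood at -4.54, -4.26 and -2.45 in MEFs and at -4.61, -4.13 and -4.75 in iPS cells (SE 0.049 to 0.060). Krt5, Krt1 and Krt10, keratins of stratified epithelium, lay between -0.05 and 0.38 in both groups, and none was called. Of the 5 trophectoderm markers 3, Krt7 and Cdx2 among them, were lower in iPS cells than in ES cells, and the list's summed signal was 10229 to 13076 in ES cells, 9728 to 10421 in MEFs and 2649 to 2843 in iPS cells. Its part in the falls of Dsp, the keratins and the claudins in iPS cells was not tested.

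Of 11 tested regulators of epithelial junction genes, 6 were lower and 3 higher in MEFs, and 6 were lower and 1 higher in iPS cells. The shares of all tested genes were 13.7% and 14.0% in MEFs and 11.9% and 9.10% in iPS cells. Grhl2, an activator of claudin and cadherin genes, was at least 17.1-fold lower in MEFs (adjusted p = 3.74e-09) and at -1.54 ± 0.051 in iPS cells. The repressors Snai2 and Snai1 stood at 4.48 ± 0.051 and 1.42 ± 0.058 in MEFs. In iPS cells Snai2 stood at -0.55 ± 0.051, and Snai1 was lower, at -1.41 and -1.60 on the arrays (SE 0.058, adjusted p = 3.79e-07). Zeb2, a related repressor, was not called in MEFs (0.45 ± 0.050) and lower in iPS cells (-4.14 ± 0.050). Twist2, a mesenchymal factor, was higher in MEFs (3.11 ± 0.064) and at least 10.4-fold lower in iPS cells than in ES cells (adjusted p = 1.47e-08). Elf3, an epithelial factor, stood at -1.38 ± 0.052 in MEFs and 1.77 ± 0.052 in iPS cells. Zeb1 had a marked spot on MEF replicate 2 and was not tested; its ratio was 2.31 on MEF replicate 1 and 1.06 and 1.08 on the iPS arrays. The falls of Snai1, Zeb2 and Twist2 in iPS cells stood beside the lower fibroblast marker signal given above, and its part in them was not tested.

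**Figure D4:**
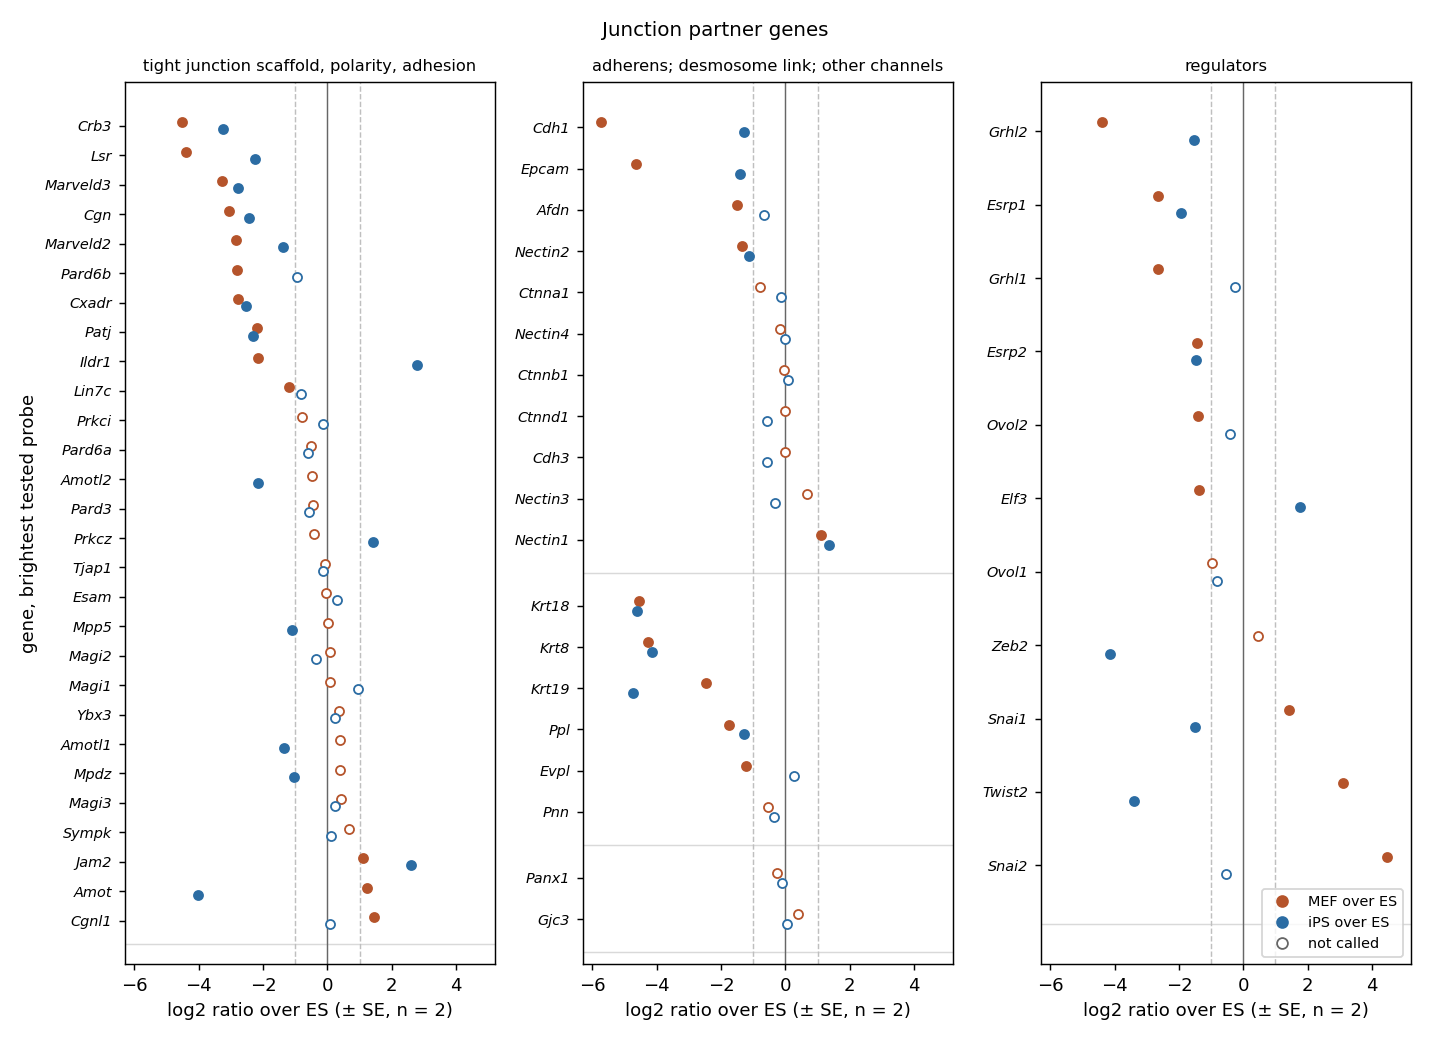
Log2 ratio over ES cells (horizontal axes, ± SE, n = 2 arrays) of the 58 tested partners (vertical axes) in MEFs (orange) and iPS cells (blue), in panels by list. Filled symbols were called, open symbols were not, and dashed lines mark 2-fold. Cdh1 reaches -5.75 in MEFs against -1.28 in iPS cells, and Krt18 and Krt8 lie at -4.13 or lower in both.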

How the data were processed

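The deposited scanner files hold, per the file headers, each spot's mean intensity and its local background's median intensity in both channels, read with Agilent Feature Extraction 10.5.1.1, not normalized. The deposited log10 ratios of red over green were made by the scanner software from its processed signals, and the deposited series values equal these log10 ratios exactly. Mean intensities were corrected with normexp (offset 50) in limma 3.58.1 (R 4.3.3), over spots that the scanner software had not marked, and normalized by loess (span 0.3, control spots at weight 0). Spots of a probe were averaged. Probes well above background on all arrays of at least 1 RNA, with values on all 4 arrays, went into lmFit and eBayes, with 2 residual degrees of freedom and a prior worth 4.91. MEF and iPS ratios were tested against 0, which leaves out the ES cells' own spread, and against each other. Without a dye swap, dye effects on a gene drop out of the iPS over MEF difference alone. The 4 arrays shared 1 slide and 1 scan. Where no array of a group measured a gene's chosen probe well above background, the fold is a lower bound ("at least") for that probe. It is set by that array's lowest signal well above background in normalized channel values, where dye bias can enter.

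Names came from RefSeq where the accession matched (24375 of 41174 probes, 68 of 85 junction probes), otherwise from matched probes of the same array name or the array. Promoters are RefSeq's. Genes named with full values were the 12 with the largest called ratios per comparison, those with probes of different calls and the best known of each family; partner genes were the 4 largest falls and rises per comparison and Cdh1, Epcam, Grhl2, Snai1, Snai2, Zeb1 and Zeb2. Some genes are counted but not reported here by name. Members and lists were chosen with earlier results of these data known. The fit was checked on simulated data.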

Additional observations from a re-analysis of the deposited data

Results flagged for a closer look

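On every array, the junction genes Gjb2, Pkp4 and Cldn5 lay on one side of ES cells in MEFs and on the other side in iPS cells, with a called difference. The iPS minus MEF log2 difference was -3.50 for Gjb2, 2.07 for Pkp4 and 1.56 for Cldn5, with limma adjusted p-values of 1.56e-08, 1.84e-07 and 6.76e-07. With normexp fitted over all spots the differences were -2.79, 1.32 and 1.24. None was called there (limma adjusted p = 0.059, 0.23 and 0.063), nor with marked spots kept. The Cldn5 probe was not well above background on either MEF array, so its MEF side and the size of its difference are uncertain (4.60 with processed signals). The ratio over ES cells was itself called in both groups for Gjb2 and in MEFs for Pkp4.

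Outside the tested probes, the Tjp3 probe (a zonula occludens scaffold) had a spot marked on MEF replicate 1 for its local background and not for the feature itself. It gave -1.98 in MEFs over ES cells when such spots were kept, with -2.04 and -1.93 on the arrays, and 0.69 in iPS cells.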

How the results depend on the processing

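All of the 36 genes' 108 ratios stayed called or not called under Aquantile, no filter on dim probes, 1 probe per gene, and trended or robust variances. So did all 75 that passed a strict filter on dim probes. These settings leave the ratios themselves unchanged, so they bear on the calls alone and not on direction. With normexp over all spots 76 of the 108 stayed called or not called, and with marked spots kept 77 did. A fit with the replicate block gave the same 13 lower and 1 higher in MEFs, 12 and 4 in iPS cells and 3 and 13 between them. Deviations of same-numbered arrays correlated at -0.11, and a block with crossed numbers, added after seeing the data, gave the same counts.

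With normexp over all spots, MEFs had 0 lower, 0 higher and 0 called (partner genes 0; 4 junction and 11 partner genes at an unadjusted p under 0.05), iPS cells 7 lower (17 partner genes called), and iPS cells over MEFs 1 lower, 2 higher and 3 called (10 partner genes). With marked spots kept these were 1, 0 and 1 (4 partner genes), 7 (19 partner genes), and 1, 1 and 2 (13 partner genes). Under both, iPS over MEF reversed for Cldn7 (-0.083 and -0.087) and Cldn3 (-0.223 and -0.222). The differences of Cldn6, Cldn4 and Dsc2, not called, turned under both too, to -1.02, -0.41 and -0.61. With processed signals or the value table, MEFs had 8 higher and 24 called, iPS cells 7 higher and iPS cells over MEFs 8 lower. In that fit Gjb2 stood at -3.50 in iPS cells and Dsg2 at -7.04 in MEFs. Median centring, which moved the median of all genes to 0.18 in MEFs and 0.17 in iPS cells, gave 2 higher in MEFs and 5 lower in iPS cells over MEFs, and raised the share of higher among all called genes from 50.5% to 69.6% (MEFs) and from 43.3% to 62.4% (iPS cells). Without a fold limit, calls were 23 lower, 9 higher and 32 in all in MEFs (50 partner genes), 20, 11 and 31 in iPS cells (51 partner genes) and 9, 20 and 29 between them (46 partner genes). Leaving out 1 array gave 13 to 16 lower and 1 to 2 higher in MEFs, 12 to 13 lower and 4 to 5 higher in iPS cells, and 2 to 5 lower and 11 to 13 higher between them. There the lone array of a group was assumed to vary like the other group's arrays. The cause of these shifts was not tested. Keeping spots marked for background alone, except those with a local background above 500, was also added after seeing the data. It gave 15 lower and 1 higher in MEFs among 38 tested genes, and unchanged counts otherwise. The Cldn3 difference between iPS cells and MEFs lost its call there. The Dsp difference between iPS cells and MEFs was short of 2-fold with quantile normalization and with the mean over probes.

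With 2 arrays per group, 1 slide and 1 clone, the values describe these RNAs. The offset compresses ratios of dim genes such as Ocln, and 20 junction genes were too dim for any statement.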
